A study of Mus musculus with 26 samples.

Results

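The comparison described here sets the 24 h response to interferon gamma (IFNγ) of endothelium from MCA313 tumours against that of endothelium from J558L tumours. Its means come from 10 of the 26 arrays of the series, those of both tumours at 0 h and 24 h, 5 from each tumour. A response is the mean log2 expression at 24 h minus the mean at 0 h within a tumour, and the difference is the MCA313 response minus the J558L response. A gene's value is the average over all probe sets assigned to it alone. Members were thus chosen by tumour and time on the labels, not by measured values.

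Tumours of female mice aged 4 to 6 months were digested and their CD31+/CD146+ cells sorted, and between 5000 and 15000 cells gave about 500 pg of RNA for each array. Tumours had grown to about 1 cm. MCA313-IFNγ-IND tumours, whose cells can be induced to make IFNγ, grew in PIG-Pdgfb-Cre-IFNγ-del mice. These carry a Pdgfb-Cre transgene, and the labels give their IFNγ receptor as restricted to endothelium. These tumours were left uninduced (0 h, 3 arrays) or induced for 24 h (2 arrays). J558L-IFNγ-GFP-IND tumours, from a mouse plasmacytoma line, grew in Rag-/- mice, which lack mature T and B cells and carry the receptor on all cells. They were left uninduced (0 h, 2 arrays) or induced for 24 h to make IFNγ-GFP (3 arrays). The labels of the MCA313 mice give no Rag status. Whether the lymphocytes of the hosts differ between the arms is therefore not known. The tumour, the form of the cytokine and the cells that carry the receptor all differ between the arms and cannot be told apart. Whether each replicate came from its own animal is not stated, so p-values measure the spread between these arrays.

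IFNγ binds a receptor of the chains IFNGR1 and IFNGR2, which signals through the kinases JAK1 and JAK2. Many of its target genes carry GAS elements in their DNA, and others carry interferon-stimulated response elements (ISRE), on which induced factors such as IRF1 act. In endothelium the cytokine is known to induce antigen presentation, chemokines and immunity-related GTPases and to restrain proliferation.

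The table used held part of the array, and 4361 of the 4386 genes tested lie on chromosomes 1, 10, 11, 12 and 13. The tumours appear to have been normalized separately, with array medians of 5.78 to 5.88 in MCA313 and 6.42 to 6.46 in J558L, so responses were compared and levels were not. Replicate arrays of a group correlated at 0.978 to 0.989 across genes. A control array of each tumour stood apart in ways that bear on the results. The 7 interferon-inducible GTPases averaged 7.47 in MCA313 control replicate 1 against 8.79 and 9.31 in control replicates 2 and 3. Of the 58 genes that rose in MCA313, 48 had their lowest control value in that array. Among the 65 genes that fell in MCA313, 48 had their highest control value there. The 15 mitosis genes averaged 7.36 in J558L control replicate 1 against 6.71 in control replicate 2. Of 73 named genes called in J558L, 8 kept the call without J558L control replicate 1: Cdca7l, Fbxo5, Ifi205, Ifi207, Irf4, Slamf8, Sp140 and Zup1. The other 65 kept their direction and lost the call (limma, adjusted p = 0.0594 to 0.862), which holds for every other J558L call named below. That fit has 1 J558L control left, whose spread is taken from the other groups. Of 77 named genes called in MCA313, 30 kept the call without MCA313 control replicate 1 and all kept their direction. Those kept among the genes below that rose were Ctla4, Gdap10, Gm11992, Gm12250, Heatr9, Ifi205, Ifi207, Ikzf4, Il18rap, Irf4, Irgm1, Nampt, Slamf8, Sp140 and Timp3. Those that fell were Col18a1, Mlh3, Ncoa1, Nuf2, Slc35f1 and Tgfb2. The other 47 lost the call (limma, adjusted p = 0.0541 to 0.271), which holds for every other MCA313 call named below.

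Pecam1, which encodes the sorting marker CD31, stood at 11.62 to 11.70 in the MCA313 controls and 11.42 and 11.45 at 24 h, and at 11.71 to 12.01 on all J558L arrays. Its difference was -0.07 ± 0.20 (standard error, SE). Icam2 and Sox17, the other measured markers of endothelium among 16 listed, were also above the array medians on all 10 arrays. Ifng itself read 3.79 to 4.14 in MCA313 and 4.19 to 4.36 in J558L, below the array medians throughout. The receptor chain gene Ifngr1 read 10.01, 11.44 and 11.56 in the MCA313 controls and 11.58 and 11.52 at 24 h. In J558L it read 10.79 and 10.74 in the controls and 10.54, 10.47 and 10.67 at 24 h. The Ifngr1 difference was 0.76 ± 0.55, and 0.26 without MCA313 control replicate 1.

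Ctla4 was the gene whose response differed between the tumours. It encodes an inhibitory receptor known from T cells, which competes with CD28 for the ligands CD80 and CD86. In MCA313 the controls read 3.86, 3.62 and 3.96 and the arrays at 24 h read 6.73 and 6.92. In J558L the controls read 4.26 and 4.62 and the arrays at 24 h read 4.81, 4.94 and 4.71. The groups did not overlap in either tumour, and the MCA313 step was the larger by far more than the spread of any group, whose SDs lay between 0.12 and 0.25 (n = 2 or 3).

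The Ctla4 response was 3.01 ± 0.21 in MCA313 (adjusted p = 3.35e-09 in limma) and 0.37 ± 0.21 in J558L (95% interval -0.05 to 0.80, adjusted p = 0.587). The difference was 2.64 ± 0.29 (95% interval 2.03 to 3.24), with adjusted p = 3.02e-05. It was 1 call among 4386 genes, or 0.0228%, while 148 genes (3.37%) had an unadjusted p under 0.05. In MCA313, Ctla4 moved from percentile 13.3 to percentile 69.7 of gene levels. In J558L both groups lay below the array medians, at percentiles 15.1 and 23.1. The controls of both tumours thus lay near the floor of the arrays, where changes are read with less certainty in size, so no fold change is given.

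**Figure D1:**
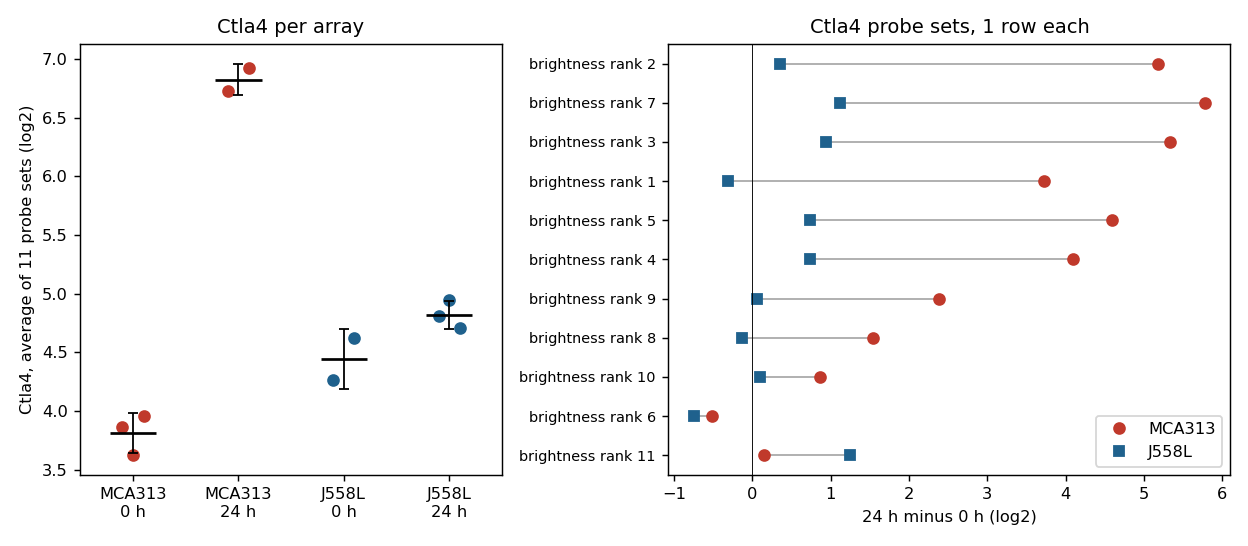
Left, Ctla4 on each array (log2, average of 11 probe sets) in 4 groups, with points for arrays, lines for means and bars for SD; right, the 24 h response (log2) of each Ctla4 probe set in MCA313 (circles) and J558L (squares). The MCA313 arrays at 24 h sit at 6.73 and 6.92, above the MCA313 controls at 3.62 to 3.96, and 10 of 11 probe sets had the higher response in MCA313.

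Of the 11 probe sets of Ctla4, 10 had a positive difference, with a median of 3.36. The probe set second in brightness read 5.113, 5.42 and 4.232 in the MCA313 controls, 9.806 and 10.405 at 24 h, and 5.378 to 6.09 on the J558L arrays. In MCA313 at 24 h, 6 of the 11 were above the array medians on both arrays. With each of the 10 arrays left out in turn the difference of the averaged gene stayed between 2.46 and 2.82 and kept its call. In limma the call ended with the brightest probe set of each gene (4.04, adjusted p = 0.363) and with the median of the probe sets (3.28, adjusted p = 0.0959). At 48 h of induction in MCA313, 2 further arrays read 7.95 and 7.09, a response of 3.71 ± 0.21 against the same controls. In kidney endothelium of J558L-bearing mice the 24 h response was 0.06 ± 0.18. In 16.113 tumours at 120 h, arrays with IFNγ-competent T cells stood 0.17 ± 0.16 above those with IFNγ-deficient T cells. That contrast sets T cell groups against each other at a later time, not induced against uninduced tumours.

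Of the 7 measured T and NK cell markers, none but Ctla4 passed any of the 3 tests. Over all genes 2.8% passed in MCA313, 2.12% in J558L and 0.0228% in the difference, so a list of this size says little by such a count. Cd28 and Icos, the costimulatory receptor genes beside Ctla4 on chromosome 1, had differences of -0.09 ± 0.27 and -0.19 ± 0.42. Both lay below the array medians in all 4 groups. Pdcd1, which encodes the checkpoint receptor PD-1, had a difference of 0.29 ± 0.27 and passed no test. The T cell receptor signalling chain gene Cd247 read 5.22 to 5.83 in the MCA313 controls and 5.93 and 6.25 at 24 h, with a difference of 0.63 (95% interval -0.06 to 1.31). Prf1, which encodes perforin, had a difference of -0.94 (95% interval -1.77 to -0.11, adjusted p = 0.999 in limma). Of 17 listed T and NK cell markers 7 were measured. The average of these 7, Ctla4 included, was 4.59 to 4.87 in the MCA313 controls, 5.01 and 5.37 at 24 h, and 4.96 to 5.24 in J558L. It carries the Ctla4 rise itself, so it is no separate view of the other markers. In MCA313 the means of Icos, Prf1 and Ikzf1 were lower at 24 h, and those of Cd28, Cd247 and Xcl1 higher. All 7 lay below the array medians in the MCA313 controls and in both J558L groups, and 5 did in MCA313 at 24 h. Cd3e and the other CD3 chains were not analysed here. In bulk samples fewer cells of a type and less RNA per cell cannot be told apart.

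**Figure D2:**
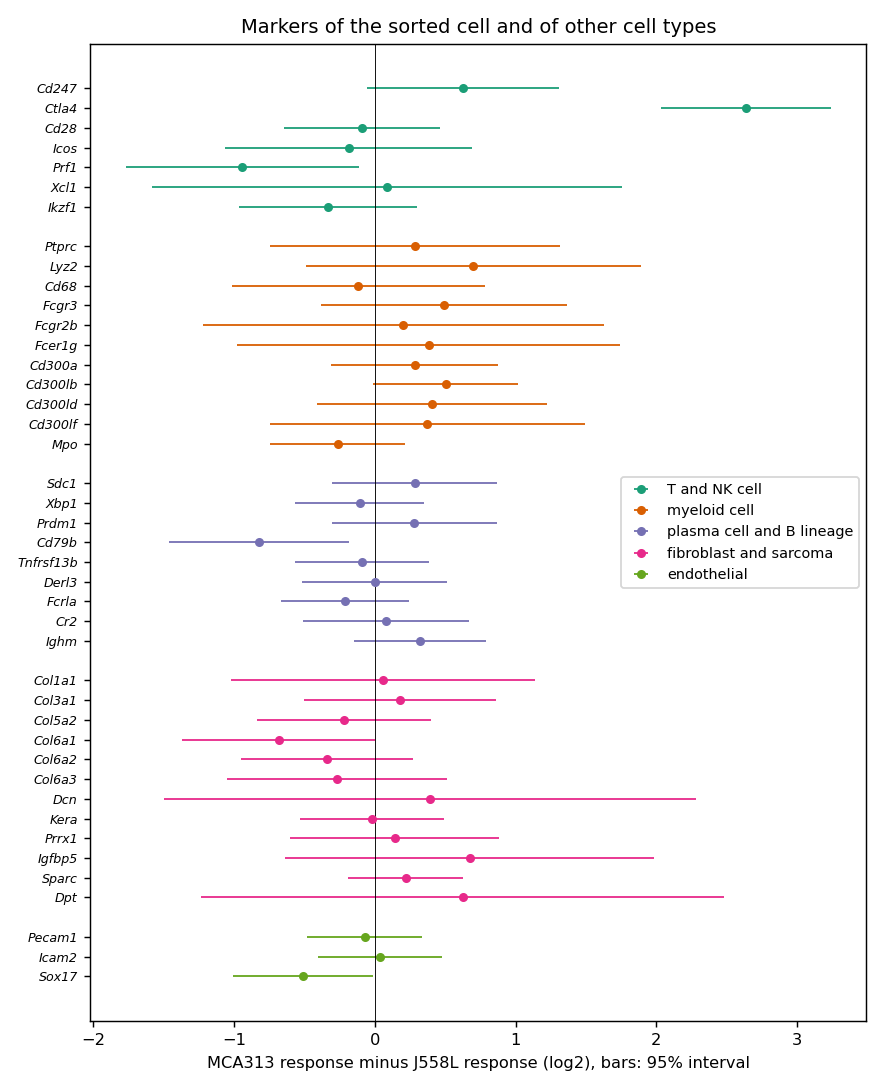
Difference of responses (MCA313 minus J558L, log2) for each measured marker of T and NK cells, myeloid cells, plasma and B cells, fibroblasts and endothelium, with 95% intervals. Ctla4 at 2.64 stands apart from the other 6 T and NK cell markers, which lie between -0.94 and 0.63.

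Markers of other cells that a sort could carry had no gene past the test of the difference, which 0.0228% of all genes passed. At that share these lists are too small for such a count to say anything. Of 11 tested myeloid markers 9 had positive differences, from 0.70 for the lysozyme gene Lyz2 downward, with a median of 0.37. Their average was 4.72 to 4.86 in the MCA313 controls and 4.91 and 5.03 at 24 h, and in J558L 5.63 and 5.68 in the controls and 5.50 to 5.60 at 24 h. Of the 12 measured, 10 lay below the array medians in the MCA313 controls and 9 in each other group. Of 12 fibroblast markers 7 had positive differences, with a median of 0.10. Of 9 plasma and B cell markers 4 did, and Cd79b rose in J558L by 0.83 ± 0.22 (adjusted p = 0.0478) at levels below the array medians. That response was 0.60 without J558L control replicate 1 and lost the call (adjusted p = 0.73 in limma). The 4 pericyte and smooth muscle markers averaged 5.44, 6.20 and 7.08 in the MCA313 controls, 6.63 and 6.33 at 24 h, and 5.28 to 6.03 in J558L, and 1 of the 4 differences was positive. The lymphatic marker Prox1 and the red cell marker Slc4a1 lay below the array medians. The part of these cells in the results was not tested.

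No other gene passed the test of the difference. The 5 genes of smallest p in each direction, Ctla4 among them, are given as descriptions. They are not the genes of largest difference, as the lowest over all genes was -2.99. Slc35f1, a solute carrier gene, read 6.60, 6.26 and 6.44 in the MCA313 controls and 4.80 and 4.09 at 24 h. In J558L it read 4.76 and 4.74, then 5.36, 4.70 and 6.57. Slc35f1 fell in MCA313 by 1.98 ± 0.39 on the log2 scale (adjusted p = 0.00608), and the difference was -2.78 ± 0.55 (adjusted p = 0.103). J558L replicate 2 at 24 h held the lowest value, 4.70, and replicate 3 the highest, and both J558L means lay below the array medians. Without J558L 24 h replicate 2 the difference passed, at -3.20 with adjusted p = 0.00636.

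D030028A08Rik fell in J558L by 0.86 ± 0.20, from 6.36 and 6.46 to 6.01, 5.31 and 5.34. In MCA313 it stood at 0.48 ± 0.20, and the difference was 1.34 ± 0.29 (adjusted p = 0.179). It passed without J558L 24 h replicate 1, at 1.57 (adjusted p = 0.0139). Its J558L response was -0.91 without J558L control replicate 1 and lost the call (adjusted p = 0.208 in limma). The keratin gene Krt20 fell in J558L, from 8.65 and 8.41 to 7.29, 6.88 and 6.37, and moved by 0.04 in MCA313. Its difference of 1.72 ± 0.47 had all 10 probe sets positive and did not pass. Heatr9 rose in MCA313 by 1.28 ± 0.22 and stood at 0.25 in J558L. The sestrin gene Sesn1, a stress-response gene, rose in MCA313 by 1.01 ± 0.27 and stood at -0.25 in J558L. Heatr9 and Sesn1 lay below the array medians on all 10 arrays.

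Among negative differences, the nuclear receptor coactivator gene Ncoa1 read 7.23, 7.05 and 6.83 in the MCA313 controls and 5.92 and 6.03 at 24 h, against 7.21 to 7.62 on all J558L arrays. It fell in MCA313 by 1.06 ± 0.21, with a difference of -1.03 ± 0.29. The mismatch repair gene Mlh3 fell in MCA313 by 1.18 and stood at -0.05 in J558L. Irf2bpl fell in MCA313 by 0.63 and stood at 0.11 in J558L. The lipoxygenase gene Alox15 rose in J558L by 0.81 ± 0.19 and stood at -0.11 in MCA313, with group means below the array medians in both tumours. That value was 0.70 without J558L control replicate 1 and lost the call (adjusted p = 0.389 in limma). These 9 genes were picked by their own p for the difference, so their values support nothing further.

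The responses of the tumours were then compared across genes. In MCA313, 123 genes passed (2.8% of those tested), of which 58 rose (1.32%) and 65 fell (1.48%). In J558L, 93 passed (2.12%), of which 48 rose (1.09%) and 45 fell (1.03%). Both responses passed for 43 genes (0.98%), 26 rising in both and 17 falling in both, with no gene called in opposite directions. That is 35% of the MCA313 calls and 46.2% of the J558L calls. Without J558L control replicate 1 the shared genes numbered 6, without MCA313 24 h replicate 2 they numbered 11, and without MCA313 control replicate 1 they numbered 20. The shared calls had the same direction in each of these fits.

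The responses had the same sign in 115 of the 123 genes called in MCA313 (93.5%) and in 89 of the 93 called in J558L (95.7%), and in 62.9% of all genes. Of the 80 genes called in MCA313 alone, 72 had the same sign in J558L, and of the 50 called in J558L alone, 46 had it in MCA313. Across the 4386 genes the responses had Pearson's r = 0.617 and Spearman's rho = 0.442. The responses share no array, but genes are not independent replicates. Of the 173 genes called in either tumour, 52 had a 95% interval of the difference that lay within 1 log2 unit of 0 on both sides, and 43 had one that excluded 0. A call in a single tumour was in itself no test of a difference.

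**Figure D3:**
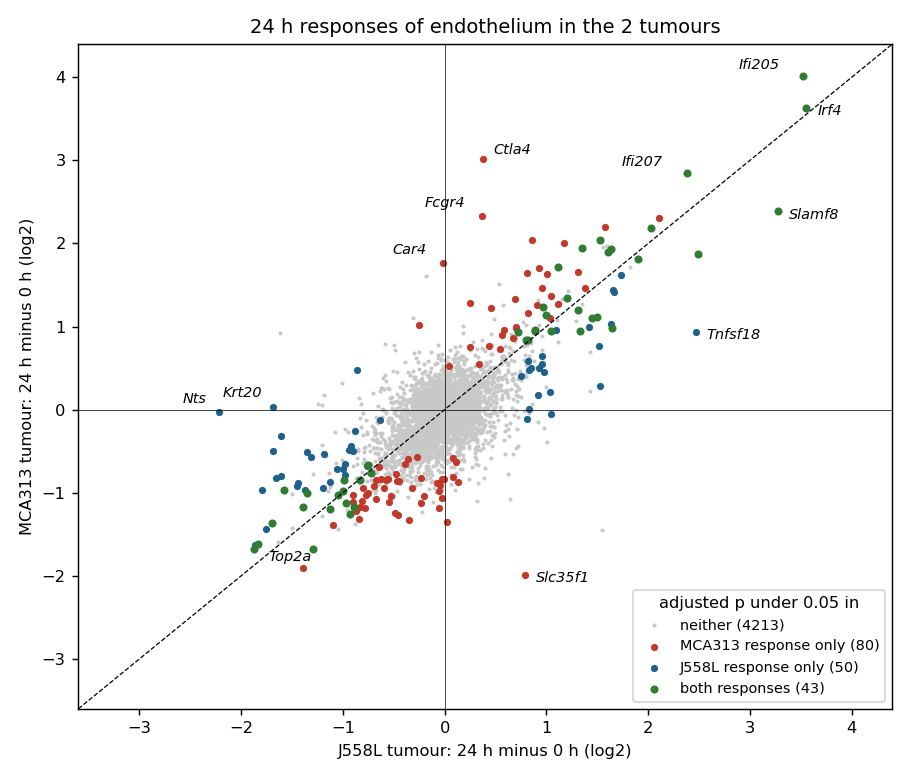
Response of each of 4386 genes at 24 h (log2) in J558L (x axis) and MCA313 (y axis), coloured by the tumour in which it passed the test, with the line of equal response dashed. The 43 genes past the test in both lie along that line, while Ctla4 lies at 0.37 and 3.01.

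Genes that rose in both tumours included transcription factors, interferon-inducible families and receptors. Irf4, a member of the interferon regulatory factor family known from lymphocytes, read 4.59, 4.31 and 5.67 in the MCA313 controls and 8.47 and 8.50 at 24 h. In J558L it went from 4.60 and 4.95 to 8.45, 8.13 and 8.41. The steps were nearly equal, at 3.63 ± 0.38 and 3.55 ± 0.38, with a difference of 0.07 (95% interval -1.04 to 1.19) and all 11 probe sets higher in both. Other regulators rose by close to 1 log2 unit in each: Id2, an inhibitor of helix-loop-helix factors, by 0.94 and 1.04, Batf3 by 1.14 and 1.00 and the zinc finger factor gene Ikzf4 by 1.20 and 1.31.

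Ifi205, of the interferon-inducible Ifi200 family of DNA-binding proteins, read 5.20, 5.93 and 7.52 in the MCA313 controls and 10.20 and 10.25 at 24 h. In J558L it went from 6.59 and 7.13 to 10.31, 10.54 and 10.30. Its controls spread widely in MCA313 (SD 1.19), and the groups stayed apart. The responses were 4.01 ± 0.44 and 3.52 ± 0.44, with a difference of 0.49 (95% interval -0.81 to 1.79) that was -0.02 without MCA313 control replicate 1. Ifi207 of the same family rose by 2.84 and 2.38.

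Slamf8, a surface receptor of the SLAM family, read 6.00, 7.40 and 7.67 in the MCA313 controls and 9.58 and 9.24 at 24 h, and went from 6.95 and 6.88 to 10.33, 10.03 and 10.23 in J558L. It rose by 2.39 ± 0.33 and 3.28 ± 0.33. Its difference of -0.89 (95% interval -1.87 to 0.08) was the most negative of the 43, and was -1.41 without MCA313 control replicate 1 (adjusted p = 0.555). The nuclear body gene Sp140 rose by 1.87 and 2.49. The 43 differences ran from that value to 0.61 for Fbxo5, the 1 gene whose interval excluded 0 before correction (0.02 to 1.21). Their median size was 0.22, and 18 of the 43 intervals lay within 1 log2 unit of 0, so that for the other 25 a change of 2-fold between tumours lies inside the interval or at its edge.

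**Figure D4:**
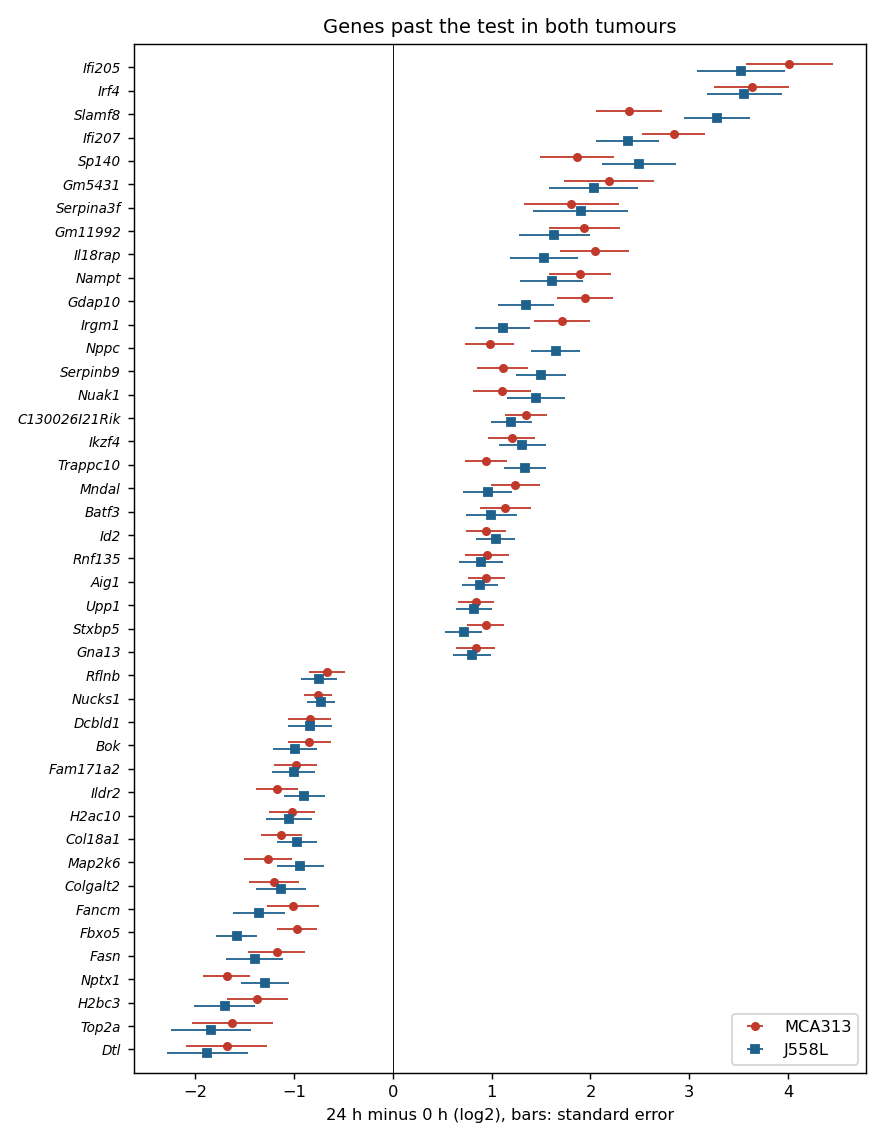
Response at 24 h (log2, bars SE) of the 43 genes past the test in both tumours, in MCA313 (circles) and J558L (squares). All 43 lie on the same side of 0 in both, from Ifi205 at 4.01 and 3.52 to Dtl at -1.68 and -1.87.

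The sequences just upstream of the strongest shared rises are shown with that of Ctla4, because elements through which IFNγ acts can lie there. They are the 250 bases before the annotated start from RefSeq, build GRCm38.p6, written 5′ to 3′ on the strand of the gene. Capitals mark a match to the ISRE core (GAAA, any 2 bases, GAAA) on either strand, and no match to the GAS core TTCNNNGAA was found in the 5.
Ctla4 (chr1:60908775-60909024, plus strand): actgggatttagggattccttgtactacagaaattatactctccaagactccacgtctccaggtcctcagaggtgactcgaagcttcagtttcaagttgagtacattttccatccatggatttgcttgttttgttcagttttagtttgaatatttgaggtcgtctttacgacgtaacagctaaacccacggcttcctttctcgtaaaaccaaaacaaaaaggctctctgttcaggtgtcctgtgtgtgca
Ifi205 (chr1:174031756-174032005, minus strand): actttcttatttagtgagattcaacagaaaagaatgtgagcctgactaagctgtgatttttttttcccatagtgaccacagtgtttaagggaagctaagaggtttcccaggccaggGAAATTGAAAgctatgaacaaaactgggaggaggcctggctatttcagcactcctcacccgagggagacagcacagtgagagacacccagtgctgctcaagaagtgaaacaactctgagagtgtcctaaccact
Ifi207 (chr1:173741810-173742059, minus strand): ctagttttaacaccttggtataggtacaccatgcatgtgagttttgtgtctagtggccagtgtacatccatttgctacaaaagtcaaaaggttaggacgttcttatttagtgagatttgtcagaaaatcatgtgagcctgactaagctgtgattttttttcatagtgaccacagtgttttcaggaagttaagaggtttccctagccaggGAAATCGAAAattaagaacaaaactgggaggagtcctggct
Slamf8 (chr1:172590569-172590818, minus strand): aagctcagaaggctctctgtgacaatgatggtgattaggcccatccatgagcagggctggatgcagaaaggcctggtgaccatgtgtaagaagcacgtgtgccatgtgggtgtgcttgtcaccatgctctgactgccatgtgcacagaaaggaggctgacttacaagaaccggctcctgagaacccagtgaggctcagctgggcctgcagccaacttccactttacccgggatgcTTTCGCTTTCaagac
Irf4 (chr13:30748983-30749232, plus strand): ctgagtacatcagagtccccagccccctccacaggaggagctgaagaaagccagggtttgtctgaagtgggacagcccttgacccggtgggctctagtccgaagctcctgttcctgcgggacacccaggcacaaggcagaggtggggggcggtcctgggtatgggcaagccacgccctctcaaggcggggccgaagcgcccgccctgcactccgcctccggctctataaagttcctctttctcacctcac

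The match lay 134 to 125 bases before the start in Ifi205, 41 to 32 in Ifi207 and 15 to 6 in Slamf8, and neither Ctla4 nor Irf4 had one in this window. Of the 26 genes that rose in both tumours 25 had a promoter in the table, and 7 of these (28%) held the ISRE core: Gna13, Ifi205, Ifi207, Irgm1, Mndal, Serpinb9 and Slamf8. The core was found in 3.41% of the 3574 tested genes with a promoter, and in 3.46% of all 27025 promoters. The 7 are not all separate cases, as Ifi205, Ifi207 and Mndal are relatives of the Ifi200 family. The letters around the match are nearly the same in Ifi205 and Ifi207. The GAS core was found in 3 of the 25 (12%), Batf3, Gm11992 and Serpina3f, and in 7.22% of tested genes and 8.13% of all promoters. Neither core was found in the 13 matched genes that fell in both. A match is a description of these letters, not a site, and the motifs can overlap.

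The immunity-related GTPases, which attack the vacuoles of intracellular pathogens, had positive responses in both tumours. Of 19 listed members 7 were tested, and 6 rose in MCA313 (1.32% of all genes rose) and 2, Irgm1 and Gm5431, rose in J558L (1.09% of all genes). The medians were 1.71 and 1.11, against -0.03 and -0.01 over all genes. All 7 differences were positive, from 0.15 for Igtp to 1.18 for 9930111J21Rik2, with a median of 0.50, and none passed. Irgm1 read 7.30, 8.48 and 9.03 in the MCA313 controls and 10.02 and 9.94 at 24 h, against 9.33 and 9.30 and then 10.53, 10.44 and 10.31 in J558L. The spread of the MCA313 controls exceeded the distance from control replicate 3 to the arrays at 24 h. Without MCA313 control replicate 1 the median responses were 1.23 and 1.11, and 3 of 7 differences were positive with a median of -0.02. In that fit 2 members rose in MCA313 and 5 in J558L, where 23 and 58 of all 4386 genes rose. Gm12250, the member whose controls read 7.19, 9.53 and 10.16, then had a difference of -0.26 in place of 0.63. The J558L median was 1.12 without J558L control replicate 1 and 1.10 without J558L control replicate 2.

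Of 12 tested members of the Ifi200 family on chromosome 1, 10 had positive responses in both tumours, 5 rose in each tumour and 3 in both, Ifi205, Ifi207 and Mndal. Over all genes 1.32% rose in MCA313 and 1.09% in J558L, and 0.98% passed in both. The medians were 1.45 and 1.41, and 7 of 12 differences were positive. Without MCA313 control replicate 1 the medians were 1.08 and 1.41, and 1 of 12 differences was positive. In that fit 2 members rose in MCA313, where 23 of all 4386 genes rose. Without J558L control replicate 1 the J558L median was 1.44. The lowest difference was that of Ifi208, which read 4.45 to 5.13 on the MCA313 arrays and went from 4.74 and 3.92 to 5.65, 5.43 and 6.21 in J558L. It was -1.21 (95% interval -2.60 to 0.18), below the array medians in all groups. Because relatives within the Ifi200, GTPase and Serpina3 families have similar sequences, cross-hybridisation among them is possible and their single values are uncertain.

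Of 14 tested members of the list of genes that carry or restrain the IFNγ signal, 2 rose in each tumour, where 1.32% and 1.09% of all genes rose, and 9 had positive responses in both. Irf1, a direct IFNγ target, rose in MCA313 by 1.16 ± 0.26 and stood at 0.82 ± 0.26 in J558L (adjusted p = 0.119). Its difference was 0.34, or 0.04 without MCA313 control replicate 1, when the J558L response passed and the MCA313 response did not (adjusted p = 0.105). Socs3, which inhibits cytokine receptors, stood at 0.38 and 0.51. Stat5b rose in J558L by 0.75 ± 0.19 and stood at 0.40 in MCA313.

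Of 10 antiviral interferon-stimulated genes 8 had positive responses in both tumours and 5 had positive differences. Rsad2, which encodes viperin, rose in J558L from 10.22 and 10.38 to 11.34, 11.16 and 11.52. In MCA313 its controls of 8.58, 9.79 and 9.27 enclosed the values at 24 h, 9.26 and 9.59. Its difference of -0.82 (95% interval -1.53 to -0.12) did not pass. Dhx58, which encodes the RNA sensor LGP2, rose in MCA313 by 1.27 and stood at 1.12 in J558L, and Ifi27 fell in J558L by 0.90 and stood at -0.50 in MCA313. Of 8 Schlafen genes, known as restrainers of proliferation and viral replication, Slfn5 rose in MCA313 by 0.86 and stood at 0.68 in J558L, while Slfn8 had a difference of -0.96 ± 0.42.

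Of 14 NF-kappaB targets and inflammatory mediators 2 rose in both tumours, where 0.98% of all genes passed in both. Il18rap, the accessory chain of the receptor for interleukin 18, rose by 2.04 and 1.53. Nampt, the rate-limiting enzyme of NAD salvage, rose by 1.89 and 1.61. Gdap10, whose span overlaps that of Nampt, rose by 1.95 and 1.35, and reads of the neighbours cannot be told apart where they overlap. Serpinb9, an inhibitor of granzyme B, rose by 1.11 and 1.50. The Serpina3 protease inhibitor genes Serpina3f and Serpina3g stood at 1.81 and 2.31 in MCA313 and 1.90 and 2.11 in J558L, where Serpina3g missed the test (adjusted p = 0.0503). Without MCA313 control replicate 1 their MCA313 responses were 1.05 and 1.58 and did not pass. No member of 16 tested chemokine and chemokine receptor genes passed in either tumour, where 2.8% and 2.12% of all genes passed. Ccl5 stood at 1.32 and 0.92. Ccl7 and Ccl8 had differences of 0.75 ± 0.32 and 1.32 ± 0.87.

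Immune receptor and ligand genes held some of the widest differences, none past the test but that of Ctla4. Fcgr4, an activating receptor for IgG, read 3.78, 4.03 and 3.94 in the MCA313 controls and 5.59 and 6.91 at 24 h. In J558L it went from 4.93 and 6.24 to 6.07, 6.14 and 5.66, below the array medians, with overlapping groups. It rose in MCA313 by 2.33 ± 0.49 and stood at 0.37 in J558L, and the difference was 1.96 (95% interval 0.52 to 3.41) with all 6 probe sets positive. Without MCA313 control replicate 1 its MCA313 response was 2.26 and lost the call (adjusted p = 0.0541 in limma). Fcgr3, which encodes another IgG receptor, had a difference of 0.49. Tnfsf18, the ligand of the costimulatory receptor GITR, pointed the other way. It rose in J558L by 2.47 ± 0.47, from 4.56 and 5.21 to 7.37, 8.11 and 6.57. In MCA313 the controls read 3.73, 3.87 and 4.30 and the arrays at 24 h 5.52 and 4.28, so that the groups overlapped. The difference was -1.54 (95% interval -2.90 to -0.17). Mr1, which presents vitamin B metabolites to T cells, had a difference of -0.85 ± 0.39.

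Genes with known roles in vessels had some wide differences, none past the test. Car4, a carbonic anhydrase of the membrane known from capillaries, read 7.63, 7.10 and 8.89 in the MCA313 controls and 9.48 and 9.78 at 24 h. On the J558L arrays it read 11.01 to 11.35 with overlapping groups. It rose in MCA313 by 1.76 ± 0.40 and stood at -0.02 in J558L, and the difference was 1.78 (95% interval 0.62 to 2.94). Without MCA313 control replicate 1 the MCA313 response was 1.64 and lost the call (adjusted p = 0.0854 in limma). Nts, which encodes the peptide neurotensin, fell in J558L by 2.22 ± 0.51, from 10.07 and 9.73 to 7.93, 7.70 and 7.40. In MCA313 the controls read 6.72, 6.83 and 7.93 and the arrays at 24 h 6.87 and 7.38, a response of -0.03. Its difference was 2.18 (95% interval 0.70 to 3.67) and did not pass.

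Sele, the gene of E-selectin, on which leukocytes roll, went from 9.80, 10.05 and 9.32 to 7.67 and 8.52 in MCA313 and from 10.11 and 10.13 to 8.07, 8.08 and 8.61 in J558L. It fell in J558L by 1.86 ± 0.45 and stood at -1.63 ± 0.45 in MCA313 (adjusted p = 0.0523), a difference of 0.24. The angiotensin-converting enzyme gene Ace fell in MCA313 by 1.25 and stood at -0.49 in J558L, and the growth factor gene Tgfb2 fell in MCA313 by 1.26 and stood at -0.45. Of 6 tip cell genes, known from sprouting vessels, all had negative responses in both tumours, with medians of -0.49 and -0.32. The netrin receptor gene Unc5b fell in MCA313 by 1.19 and stood at -0.79 in J558L. Of 20 matrix and basement membrane genes 10 had negative responses in both. Col18a1, a collagen of vascular basement membranes, fell by 1.13 and 0.97, and Fbln5 fell in MCA313 by 1.22 and stood at -0.87 in J558L. Timp3, an inhibitor of matrix metalloproteinases, rose in MCA313 by 1.37 and stood at 1.04 in J558L (adjusted p = 0.0503).

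**Figure D5:**
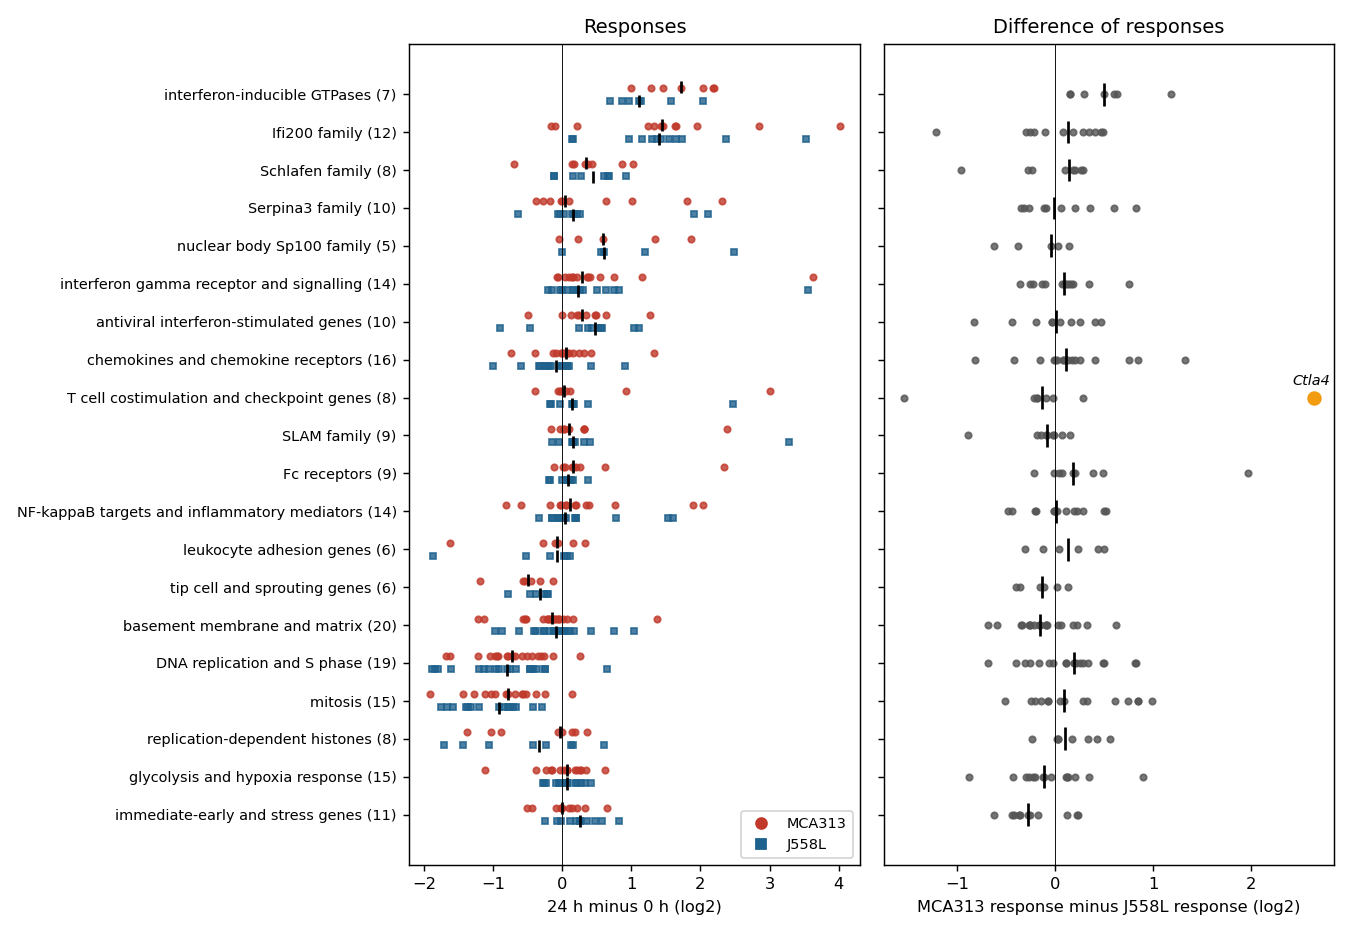
Left, response at 24 h (log2) of each tested gene of 20 lists in MCA313 (circles) and J558L (squares); right, the difference of responses, with Ctla4 enlarged as the member past the test. Ticks mark medians and numbers in brackets the genes tested; all 7 GTPases and 10 of 12 Ifi200 members lie right of 0, and 18 of 19 DNA replication and 14 of 15 mitosis genes left of 0, in both tumours.

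Cell cycle genes were mostly lower at 24 h in both tumours. Of 19 tested DNA replication genes 18 had negative responses in both, with medians of -0.72 and -0.79, and 2 fell in MCA313 and 7 in J558L, where 1.48% and 1.03% of all genes fell. Of 15 mitosis genes 14 had negative responses in both, with medians of -0.78 and -0.91, and 4 fell in MCA313 and 6 in J558L. Top2a, which encodes the topoisomerase of replicating cells, went from 7.56, 7.09 and 7.57 to 5.92 and 5.65 in MCA313 and from 8.98 and 8.09 to 6.95, 6.69 and 6.45 in J558L. It fell by 1.62 and 1.84, with a difference of 0.22 ± 0.57. Dtl, a ubiquitin ligase subunit of S phase, fell by 1.68 and 1.87, and the histone genes H2bc3 and H2ac10 fell by 1.37 and 1.02 in MCA313 and by 1.70 and 1.05 in J558L.

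Fbxo5, whose product restrains the anaphase-promoting complex, went from 6.76, 6.12 and 6.21 to 5.55 and 5.25 in MCA313. In J558L it went from 6.93 and 6.91 to 5.37, 5.46 and 5.20. The fall was 0.97 ± 0.20 in MCA313 and 1.58 ± 0.20 in J558L, and levels at 24 h lay below the array medians in both. The survivin gene Birc5 fell in J558L by 1.76 and stood at -1.43 in MCA313, the kinetochore gene Nuf2 fell in MCA313 by 1.91 and stood at -1.39 in J558L, and the primase gene Prim1 fell in J558L by 1.79 and stood at -0.97 in MCA313. Of the differences of the replication genes 12 of 19 were positive, and of the mitosis genes 9 of 15, a positive value being a less negative response in MCA313. Without J558L control replicate 1 these counts were 8 and 5, and the J558L medians were -0.55 and -0.71. Without MCA313 control replicate 1, 0 and 1 members fell in MCA313, where 15 of all 4386 genes fell. The majority sign of these differences thus turned with 1 control array.

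Fasn, the fatty acid synthase, fell by 1.17 in MCA313 and by 1.40 in J558L. The hypoxia and stress gene Ddit4 fell in MCA313 by 1.12 and stood at -0.24 in J558L, a difference of -0.88 ± 0.38. Of 15 glycolysis and hypoxia genes Ddit4 passed in MCA313 and 0 in J558L, and of 11 immediate-early and stress genes 0 passed in either. With 2.8% and 2.12% of all genes past the tests, lists of this size are too small for such counts to say anything. Btg2 had a difference of -0.62 ± 0.27.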

How the data were processed

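Each of the 26 arrays was an Affymetrix whole-transcript array, hybridised with amplified cDNA. The deposited table holds the authors' log2 expression values for 65535 probe sets. Affymetrix Expression Console and limma are named, per the submitters' processing notes, and the normalization method and genome build are not given in the sources used here. Exact values recur between arrays of a tumour (at least 26.56% of values) and hardly between tumours (at most 0.002%). Of the probe sets, 53857 had 1 gene symbol, 766 several and 10912 none. Symbols came from the platform annotation, updated through RefSeq: 4618 were current, 494 were older names and 8 were not found.

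Probe sets of a gene were averaged, a median of 10 per gene. Of 5109 genes, 4386 passed the filter that the brightest probe set exceeds the 50th percentile of the array on at least 2 arrays. limma 3.58.1 in R 4.3.3 fitted 9 group means to all 26 arrays (17 residual degrees of freedom), with two-sided moderated tests, Benjamini-Hochberg adjustment over all genes and a threshold of 0.05. Median standard errors were 0.211 for a response and 0.298 for a difference, precision being limited by how few arrays there were. The procedure was tested on simulated data.

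Named genes were the 5 of smallest p for the difference in each direction, up to 8 called in 1 tumour alone in each direction, all called in both, in each list of pathway genes or cell type markers the 2 of smallest p for the difference and any past a test, and 15 measured check genes. Ccl5, Igtp, Cd28, Icos, Pdcd1, Cd247 and Icam2 fall outside this rule and were named after their values were seen. Members and lists were chosen with earlier results of these data known. Promoters came from RefSeq (GRCm38.p6). Alternatives were other probe set summaries, filters, normalization, variance priors, array weights, the 10 arrays alone, a replicate block and each array left out.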

Additional observations from a re-analysis of the deposited data

Results flagged for a closer look

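The 24 h response of Ctla4 differed between the tumours in a test of the difference itself. It was 2.64 log2 units larger in MCA313 than in J558L (limma, adjusted p = 3.02e-05), and the MCA313 arrays at 24 h did not overlap the MCA313 controls. The tumour, host genotype, cytokine form and normalization differ between the arms and cannot be told apart.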

How the results depend on the processing

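The difference was called for Ctla4 alone under the other filters, quantile normalization, the other variance prior, array weights and the 10 arrays alone. It was called for 0 genes with the brightest probe set (131 at unadjusted p under 0.05 in limma) and for 0 with the median of probe sets (172). Over all alternatives the Ctla4 difference ran from 2.46 to 4.04. Calls numbered 30 in MCA313 and 24 in J558L with the brightest probe set, 68 and 53 with the median, 279 in J558L with array weights, and 194 in MCA313 with the 10 arrays alone. With each array left out in turn, the calls ran from 14 to 123 in MCA313, from 9 to 107 in J558L and from 1 to 2 for the difference. MCA313 had 14 calls without its 24 h replicate 2, 38 without its control replicate 1 and 73 without its 24 h replicate 1. J558L had 9 and 48 without control replicates 1 and 2, and 51, 47 and 38 without 24 h replicates 1, 2 and 3. The cause of these changes was not tested.

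Same-numbered arrays did not deviate together (r = 0.044 and 0.016 in MCA313, -0.033 and -0.059 in J558L), so the numbers were not taken as pairs. With the replicate block, 58 and 10 genes were called in MCA313 and J558L, and the Ctla4 difference was 2.65 (adjusted p = 0.0112).

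With the brightest probe set 7 named responses changed sign, and the cause was not tested. In MCA313 that of Aspm was 0.51. In J558L they were 0.53 for Cenpf, 0.15 for Fancm, -0.06 for Gm11992, 0.02 for Ildr2, 0.18 for Kif18b and -0.22 for Nppc. Of the named genes, 7 of 77 calls in MCA313 and 5 of 73 in J558L held under every alternative. In J558L the averaged Ctla4 level lay below the array medians in both groups. Whether this bears on its J558L response was not tested.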
